A study of Mus musculus with 16 samples.

Results

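The renin-angiotensin system genes examined here were Agt, Ren1, Ace, Agtr1a, Agtr1b, Agtr2, Mas1, Enpep and Atp6ap2, measured in mouse hypothalamus. They were chosen by name, from the gene name that the array files give each probe, and the rule uses no measured value, although earlier results of these data were known when they were chosen. The 9 genes were represented by 10 probes (2 for Mas1, 1 for each of the others) of the 55681 on the array. Of the 7 genes bright enough to test, 0 differed between the groups at limma's adjusted p of 0.05, against 2.58% of all probes tested. Atp6ap2, the (pro)renin receptor, alone had an unadjusted p under 0.05, which 20.0% of all probes tested reached. It measured 0.835 times the control level (95% interval 0.727 to 0.958, limma adjusted p = 0.133). Enpep and Agtr1b were too dim to test.

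In this hormone system the liver makes angiotensinogen and the kidney releases renin. Renin cuts angiotensinogen to angiotensin I, angiotensin-converting enzyme turns that into angiotensin II, and angiotensin II acts on the AT1 and AT2 receptors to control blood pressure, thirst and vasopressin release. In brain, angiotensinogen comes mainly from astrocytes, and AT1 receptors are found in hypothalamic nuclei such as the paraventricular nucleus. Sympathetic nerves drive renin release in the kidney through beta-1 adrenergic receptors. The knockout donor marrow in this study lacks both the beta-1 and the beta-2 receptor.

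Total RNA of the hypothalamus of 16 mice was hybridised to 1-colour Agilent arrays, 1 animal for each array, from 8 control mice and 8 KO chimeras. The KO chimeras were C57BL/6J mice given 950 Rad, which destroys the blood-forming cells of the host, and then whole marrow of the strain Adrb1tm1BkkAdrb2tm1Bkk/J, which lacks the beta-1 and beta-2 adrenergic receptors, by 1 retro-orbital injection. Knockout and C57BL/6J stood in a ratio of 1 to 4 and the animals recovered for 2 to 3 months, as labelled. The labels repeat the same treatment text and the same irradiated C57BL/6J recipient strain for the control mice, but name a donor strain for the KO chimeras alone, so what the control mice received is not settled. Age and sex are not in the labels. In the chimeras only cells that descend from marrow could carry the knockout, and the cells of the brain itself kept both receptors. In whole tissue, fewer cells of a type and less RNA in each cell cannot be told apart.

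The arrays had 27276 (KO chimera replicate 1) to 43248 (control replicate 8) of 59305 non-control spots well above background, a mark the scanner's software sets. KO chimera replicate 1 correlated least with its group (mean r of 0.978 across probes), and the spike-in line of control replicate 8 had an R2 of 0. Of the hypothalamus markers (Pomc, Agrp, Avp, Oxt, Hcrt and others), 14 of 15 were tested and 13 of 15 were well above background on all 16 arrays. Adrb1 was lower in the KO chimeras on 1 probe (−0.75 ± 0.14, SE; limma adjusted p = 0.0185) and not on its other probe (−0.01 ± 0.09; limma adjusted p = 0.966). Those probes were not placed relative to the deleted sequence, so they do not check the labels. There were 6 slides, 5 of them with animals of both groups, and 2 scan days, each with 4 control mice and 4 KO chimeras. Of the 35140 probes tested, 908 passed limma's adjusted p of 0.05 (2.58%), 279 of them higher (0.794%) and 629 lower (1.79%) in KO chimeras. This split depended on the scaling: with the 75th percentile taken over detected probes alone, 70.5% of 968 calls were higher, in place of 30.7%. An unadjusted p under 0.05 was reached by 20.0% of probes, and for 0.839% the groups did not overlap.

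Each probe is a stretch of 60 bases copied from its transcript. The probes for the precursor and for the enzyme that first cuts it are shown because every level of Agt and Ren1 below is the brightness of these single spots. The Agt probe lies at chr8:127083142-127083201 (mm9, minus strand, from base 1087 of the transcript in the files) and the Ren1 probe at chr1:135250782-135250841 (plus strand, from base 202). Both are 55.0% G and C, all letters being in lower case because no part is singled out.
Agt: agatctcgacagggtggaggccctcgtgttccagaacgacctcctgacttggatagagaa
Ren1: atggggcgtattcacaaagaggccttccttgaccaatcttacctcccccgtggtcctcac
The longest run of bases the Agt and Ren1 probes share is 6. The 2 Mas1 probes are not independent measurements, since they share 35 bases at chr17:13033943-13033977 (minus strand). The last 30 of these shared bases (chr17:13033943-13033972) contain the letters AATAAA, shown in capitals, the sequence that commonly marks the end of a messenger RNA.
Mas1: tcaaagttcAATAAAtatccatctctcctc
In mm9, the Ace probe lies at chr11:105850398-105850457 (plus strand), that of Agtr1a at chr13:30474638-30474697 (plus strand) and that of Agtr1b at chr3:20213539-20213598 (minus strand). The Agtr2 probe lies at chrX:21065564-21065623 (plus strand), that of Enpep at chr3:128972910-128972969 (minus strand) and that of Atp6ap2 at chrX:12193624-12193683 (plus strand). The files give a position in the transcript for each, and exon and UTR borders were not used here.

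A level here is log2 of the scanner's processed signal minus the array's 75th percentile, so 0 is the signal below which 75% of the array's non-control spots lie. Brightness differs between probes for reasons of sequence, so no probe's level is set against another's. A difference is KO chimera minus control on that log2 scale. Agt, Ren1, Ace and Atp6ap2 were well above background on all 16 arrays. Agtr1a was so on 15, Agtr2 on 13 and the second Mas1 probe on 11. The first Mas1 probe (4 arrays) and the Enpep probe (3 arrays) missed the filter of 8 arrays. Agtr1b was well above background on 0 of 16 arrays. No probe of the 10 was saturated or marked as an outlier spot on any array.

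**Figure D1:**
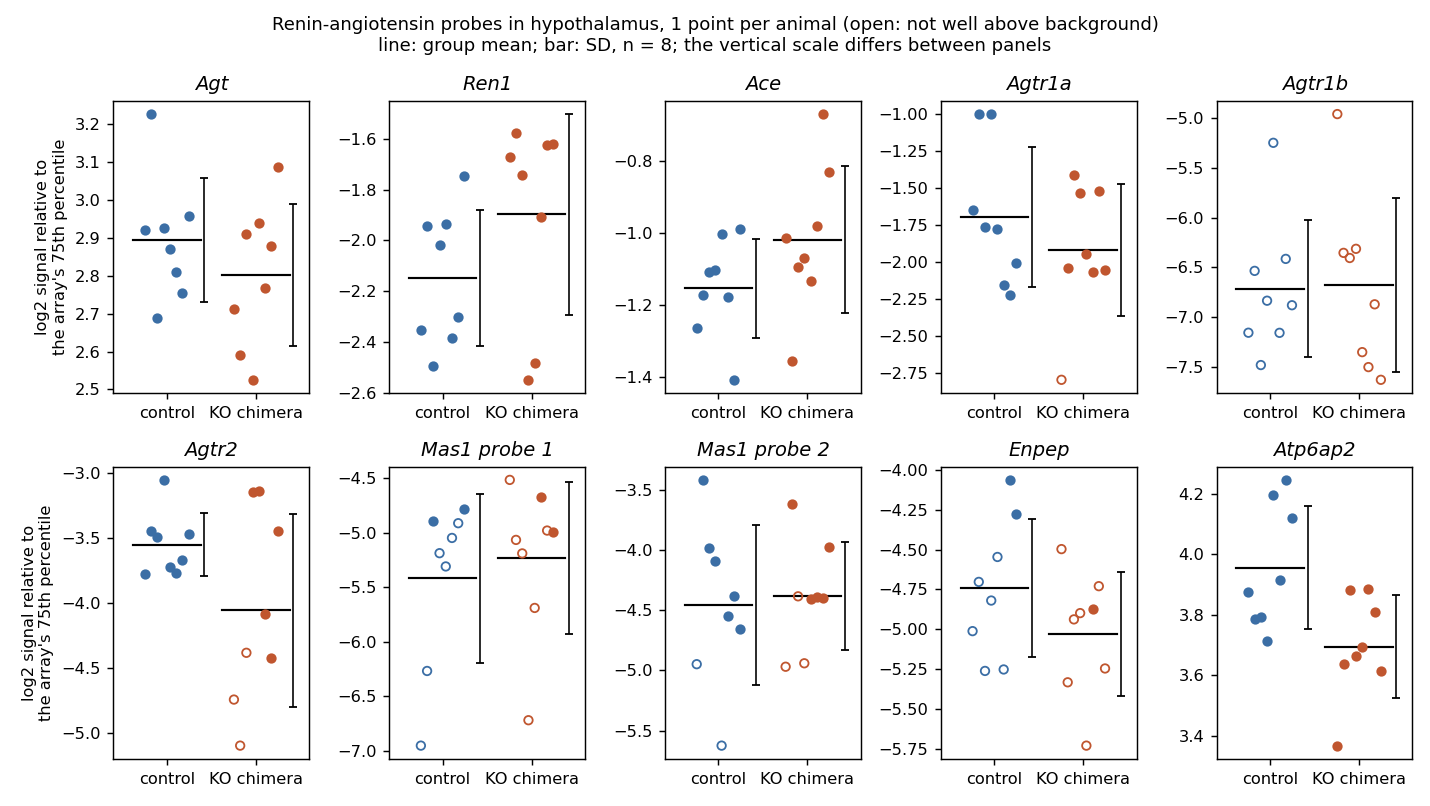
Level of each of the 10 probes in every animal (vertical axis: level on the log2 scale, with a separate range in each panel; horizontal axis: group, 8 animals each), with the group mean as a line and the SD as a bar. Open points are not well above background on that array. All 10 probes overlap between the groups, and Agtr1b has open points only.

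Of the 7 probes that passed the filter, 0 rose and 0 fell at limma's adjusted p of 0.05, against 0.794% and 1.79% of all probes tested (2.58% together). At an unadjusted p under 0.05 there was 1 of the 7, Atp6ap2, against 20.0% of all probes, and the exact two-sided permutation test over the 12870 assignments of animals also put only Atp6ap2 under 0.05. Without the filter 0 of the 10 passed and 1 had an unadjusted p under 0.05, again Atp6ap2, against 0.824% and 17.5% of all probes. The differences were negative for 4 of the 7 (Agt, Agtr1a, Agtr2, Atp6ap2) and positive for 3 (Ren1, Ace, Mas1). In all 10 the groups overlapped, and 0.839% of all probes tested had groups that did not.

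Agt encodes angiotensinogen, the precursor of every angiotensin peptide. Levels in control mice, replicates 1 to 8, were 2.92, 3.23, 2.69, 2.93, 2.87, 2.81, 2.75 and 2.96. Levels in KO chimeras, in the same order, were 2.71, 2.59, 2.91, 2.53, 2.94, 2.77, 2.88 and 3.08. The highest and the lowest animal were a control mouse and a KO chimera, and between them the groups were mixed. The means were 2.89 ± 0.16 and 2.80 ± 0.19 (SD, n = 8 each), a difference of −0.09 ± 0.09 (SE; 95% interval −0.28 to 0.10; limma adjusted p = 0.591, exact permutation p = 0.307). On a linear scale the interval runs from 0.822 to 1.07 times control. The difference was −0.18 among animals scanned on the first day and −0.01 on the second. It was negative in all 33 other settings tried, left-out animals included, from −0.22 to −0.02. Astrocyte markers, the cell type that supplies most Agt in brain, had a median difference of −0.11 over 13 of 13 genes tested. Of these, 1 fell (Fgfr3, whose other probes gave −0.12 and 0.88) and 0 rose, against 1.79% and 0.794% of all probes. The mean of the markers' centred log2 values ranged from −0.03 to 0.15 in control mice and from −0.13 to 0.09 in KO chimeras. Its part in the Agt value was not tested.

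Ren1 encodes renin, the protease that starts the cascade. The control animals, in order of replicate, had levels of −2.35, −1.94, −2.49, −2.02, −1.94, −2.38, −2.30 and −1.75. The KO chimeras had levels of −1.67, −1.58, −1.74, −2.55, −2.48, −1.91, −1.63 and −1.62. Of the KO chimeras 6 of 8 lay above the control median, while replicate 4 was the lowest of all 16 animals. The means were −2.15 ± 0.27 and −1.90 ± 0.40, a difference of 0.25 ± 0.16 (95% interval −0.09 to 0.59; limma adjusted p = 0.401, exact permutation p = 0.155). The interval corresponds to 0.941 to 1.5 times control. The difference was positive in all 33 other settings, from 0.12 to 0.34.

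The Ren1 levels of the 2 scan days, which the array files record, did not overlap in either group. Control mice scanned on the first day measured −2.02 to −1.75 and those scanned on the second −2.49 to −2.30. KO chimeras measured −1.67 to −1.58 on the first day and −2.55 to −1.74 on the second. Such a split by day, in the same direction in both groups, was seen for 0.498% of all probes tested. Between groups, the 4 KO chimeras of the first day lay above the 4 control mice of that day (difference 0.29), a separation on that day that 7.43% of all probes tested showed in either direction, and on the second day the groups overlapped (0.21). With scan day as a block the difference was the same 0.25 (limma adjusted p = 0.181), and with the slide in the model it was also 0.25 (limma adjusted p = 0.143). Which steps other than scanning were done by day is not in the files.

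**Figure D2:**
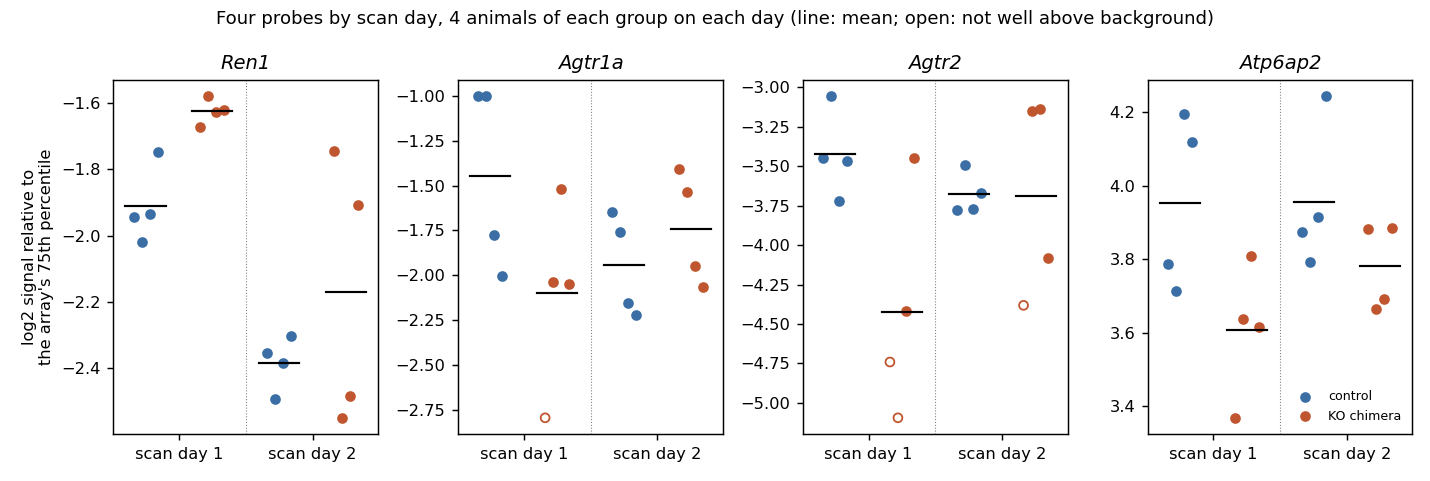
Levels of Ren1, Agtr1a, Agtr2 and Atp6ap2 (vertical axis: level on the log2 scale) in control mice and KO chimeras on each of 2 scan days, 4 animals of each group a day, with the mean as a line and open points for spots not well above background. For Ren1 the days separate within each group. For Agtr1a the difference between group means is −0.66 on the first day and 0.21 on the second, and for Atp6ap2 it is negative on both.

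The array also carries a probe for Ren2, a duplicate of the renin gene that some mouse strains have and C57BL/6J lacks. The longest run its probe shares with the Ren1 probe is 6 bases, and it was well above background on all 16 arrays, at −2.27 ± 0.19 in control mice and −1.94 ± 0.56 in KO chimeras (difference 0.33 ± 0.20, SE; limma adjusted p = 0.359). The target that gave this signal was not tested.

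Ace encodes angiotensin-converting enzyme, which sits on blood vessel lining and on the choroid plexus. Control mice ranged from −1.41 to −0.99 with a median of −1.14, and KO chimeras from −1.36 to −0.67 with a median of −1.04. KO chimera replicate 7 was the highest and control replicate 7 the lowest, and 7 of 8 KO chimeras lay above the control median. The means were −1.15 ± 0.14 and −1.02 ± 0.20, a difference of 0.13 ± 0.09 (95% interval −0.05 to 0.32, or 0.964 to 1.25 times control; limma adjusted p = 0.416, exact permutation p = 0.146). It was 0.10 on the first scan day and 0.17 on the second, and positive in all 33 other settings (0.01 to 0.20). Endothelial markers had a median difference of 0.07 with 0 of 12 changed, against 2.58% of all probes. Their score ranged from −0.40 to 0.12 in control mice and from −0.24 to 0.42 in KO chimeras. Choroid plexus markers had a median of −0.09 with 0 of 8 changed, against the same 2.58%. They had a score of −0.67 to 1.75 in control mice and −0.52 to 1.66 in KO chimeras. The part of endothelium and choroid plexus in the Ace value was not tested.

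Enpep encodes aminopeptidase A, which trims angiotensin II to angiotensin III. Its probe was well above background in 2 control mice and 1 KO chimera. All but those 3 values are bounded by the background, and the measured means were −4.74 ± 0.44 and −5.03 ± 0.39. Fitted without the filter the difference was −0.29 ± 0.20 (95% interval −0.71 to 0.13; limma adjusted p = 0.461). With normexp background correction the difference was 0.02. Since most of these values are bounded by the background, the interval does not limit how large a change in Enpep could be.

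Agtr1a encodes the main AT1 receptor of mouse brain, through which angiotensin II raises thirst and blood pressure. From control replicate 1 to 8 the levels were −1.65, −1.0, −1.76, −1.0, −1.78, −2.15, −2.22 and −2.0. Those of the KO chimeras were −2.79, −2.04, −1.41, −1.53, −1.95, −2.07, −1.52 and −2.05. Control replicates 2 and 4 were the highest, and KO chimera replicate 1, whose spot was not well above background, was the lowest. The other 13 animals were mixed. The means were −1.70 ± 0.47 and −1.92 ± 0.44, a difference of −0.23 ± 0.21 (95% interval −0.68 to 0.23, or 0.625 to 1.17 times control; limma adjusted p = 0.588, exact permutation p = 0.344).

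The sign of the Agtr1a difference was opposite on the 2 scan days, −0.66 on the first and 0.21 on the second, and the difference between days was not tested. Within slides it ran from −1.04 on the slide with both highest control mice to 0.25. Without KO chimera replicate 1 it was −0.10, and with normexp background correction it was −0.04. Without control replicate 2 or 4 it was −0.13 in each case.

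Agtr1b encodes a second AT1 receptor of rodents, found mainly in pituitary and adrenal. Its probe was not well above background on any array, and its levels were −7.48 to −5.25 in control mice and −7.63 to −4.96 in KO chimeras. Both groups are below background, so no difference is given. Of the pituitary markers 5 of 10 were tested and 0 of those changed, against 2.58% of all probes tested.

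Agtr2 encodes the AT2 receptor, which often opposes AT1 signalling and is abundant in the fetal brain. In the 8 control mice the level was −3.78, −3.45, −3.49, −3.05, −3.72, −3.77, −3.67 and −3.47, all well above background. In the 8 KO chimeras, by replicate, it was −4.74, −5.09, −4.38, −3.15, −3.14, −4.08, −4.42 and −3.45, the first 3 of them not well above background. As measured, the KO chimeras spread more widely: 5 of 8 lay below every control mouse, and the other 3 lay among the control mice. Those 5 include the 3 not well above background, whose values are only bounds but enter the mean and SD below. On the array of KO chimera replicate 1 no probe below −2.90 was well above background, and every control mouse lay below that level. The means were −3.55 ± 0.24 and −4.06 ± 0.74, a difference of −0.51 ± 0.26 (95% interval −1.05 to 0.03, or 0.484 to 1.02 times control). It missed the threshold (limma p = 0.0638, adjusted p = 0.280; exact permutation p = 0.0819).

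The Agtr2 difference was −1.0 on the first scan day and −0.01 on the second, and the difference between days was not tested. It was negative in all 32 other settings that could give it, and its size varied among them. It was −0.82 with quantile normalization or with the deposited log2 table, and −0.01 with normexp background correction, with adjusted p between 0.121 and 1.00 over all of them. Thalamus markers, tissue that borders the hypothalamus, had a median difference of −0.69 with 12 of 13 negative. The 1 called lower was Adarb1, against 1.79% of all probes called lower. The thalamus score ranged from −0.89 to 1.31 in control mice and from −1.16 to 0.24 in KO chimeras. The part of thalamus in the Agtr2 values was not tested.

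Mas1 encodes the Mas receptor, which answers to angiotensin 1-7, a product with effects opposite to those of angiotensin II. The probe at 13033918 to 13033977 was well above background in 6 control mice and 5 KO chimeras. Control mice ranged from −5.63 to −3.42 (median −4.47) and KO chimeras from −4.97 to −3.62 (median −4.39), a range that lay inside that of the control mice. The difference was 0.07 ± 0.26 (95% interval −0.48 to 0.63, or 0.715 to 1.55 times control; limma adjusted p = 0.905, exact permutation p = 0.814). The probe at 13033943 to 13034002, well above background in 2 animals of each group, gave 0.19 ± 0.35 without the filter (limma adjusted p = 0.781). Both differences took either sign over these settings.

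Atp6ap2 encodes the (pro)renin receptor, which binds prorenin and is also an accessory subunit of the proton pump of vesicles and lysosomes, the V-ATPase. It was the member with the smallest p. Control levels by replicate were 3.88, 3.79, 3.79, 3.71, 4.19, 3.91, 4.25 and 4.12. Levels of the KO chimeras by replicate were 3.37, 3.64, 3.88, 3.66, 3.69, 3.89, 3.81 and 3.62. All 8 KO chimeras lay below the control median of 3.89, and the groups overlapped between 3.71 and 3.89. The means were 3.96 ± 0.20 and 3.69 ± 0.17, a difference of −0.26 ± 0.09 (95% interval −0.46 to −0.06, or 0.727 to 0.958 times control).

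The Atp6ap2 difference did not pass over all probes (limma p = 0.0134, adjusted p = 0.133), and the exact permutation p for the single gene was 0.0146. It was −0.35 on the first scan day and −0.18 on the second. By slide it was 0.01, −0.29, −0.75, −0.39 and −0.12 on the 5 slides that held both groups. It was negative in all 33 other settings (−0.39 to −0.19) and passed in 1 of them. That was subtraction of the array median (−0.39; limma adjusted p = 0.0258), which also moved the median difference of all probes from 0.02 to −0.11. Neuron markers had a median difference of −0.20 with 9 of 10 negative and 0 called, against 2.58% of all probes. Their score ranged from 0.02 to 0.32 in control mice and from −0.20 to 0.04 in KO chimeras. Oligodendrocyte markers had a median of −0.29 with 10 of 12 negative. The 4 called lower were Mobp, Mal, Mog and Cldn11, against 1.79% of all probes called lower. The oligodendrocyte score was −0.14 to 0.46 in control mice and −0.32 to 0.06 in KO chimeras. For microglia markers the median was −0.22, with 11 of 12 negative and 1 called lower (Trem2), against the same 1.79%. Their score ran from −0.02 to 0.27 in control mice and from −0.24 to −0.02 in KO chimeras. Other marker lists had positive medians. Ependyma and tanycyte markers had a median of 0.47, with 11 of 12 positive. Of them 0 were called higher and 1 lower (Dio2), against 0.794% and 1.79% of all probes. Markers of meninges and fibroblasts had a median of 0.19, with 8 of 9 positive and 0 called. The part of these cell types in the Atp6ap2 value was not tested.

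**Figure D3:**
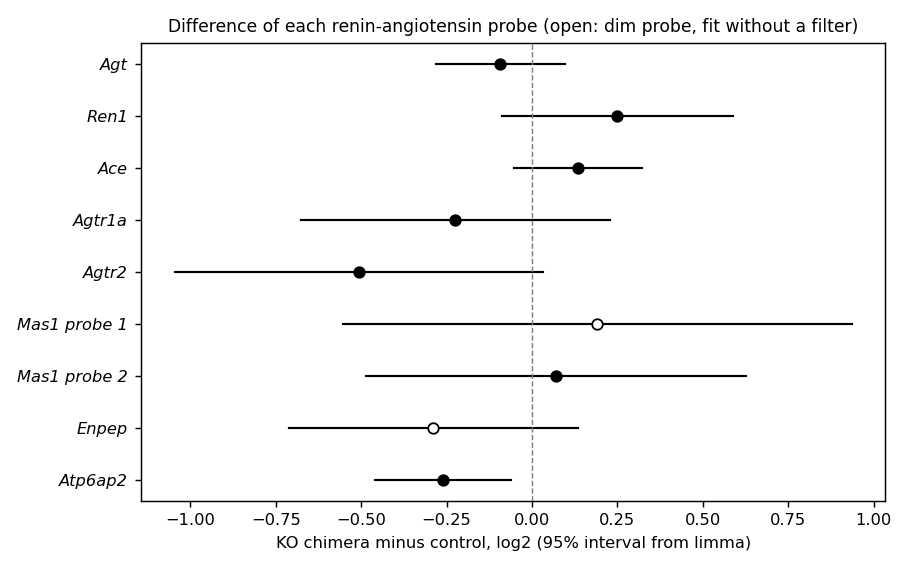
Difference of KO chimeras from control mice (horizontal axis, log2) with its 95% interval for the 9 probes with at least 1 spot well above background; open points are the 2 probes that missed the filter, from the fit without it. The interval of Atp6ap2, from −0.46 to −0.06, is the only one of these that does not hold 0.

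The smallest of these intervals, that of Ace, is 0.38 wide on the log2 scale and the widest of a probe that passed the filter is 1.11 wide, for Mas1. Over all probes the median size of a difference was 0.13 and the median SE 0.11. Ace, Agt and Atp6ap2 had an SE of 0.09, Ren1 of 0.16, Agtr1a of 0.21, Agtr2 and Mas1 of 0.26. In data simulated from these arrays with 200 probes changed, 51% of those changed by 0.5 were called, 86% of those changed by 1 and 100% of those changed by 2. The simulated noise was independent between probes and arrays, without slide or scan day effects. These percentages are taken over probes of every spread, so they are not the rates for probes with a larger SE, such as Agtr1a, Agtr2 and Mas1.

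Other genes of the pathway were taken from lists by role, with the probe of highest mean for each gene. The lists were chosen with earlier results of these data known. The shares over all probes count every probe tested, dim ones and several of a gene included. They are thus not matched to the lists in brightness. Of 16 other enzymes that make or break down angiotensin peptides, 13 were tested, and 0 rose and 0 fell (limma), against 2.58% of all probes, with 5 at an unadjusted p under 0.05 against 20.0%. Their median difference was 0.01, beside 0.02 over all probes. The mast cell proteases Cma1 and Cpa3 were among those too dim to test. The smallest p belonged to the lysosomal carboxypeptidase Ctsa (−0.24 ± 0.07, SE, limma adjusted p = 0.0756). The other Ctsa probe gave −0.07. The peptidases Prep and Thop1, which also act on angiotensin peptides, measured −0.30 ± 0.12 and 0.22 ± 0.10 (limma adjusted p = 0.184 and 0.214).

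Among 10 other receptors and receptor-binding proteins, 7 were tested, 1 rose and 0 fell, against 0.794% and 1.79% of all probes, and 2 of 7 had an unadjusted p under 0.05, against 20.0%. Their median was −0.06. The gene that rose was Agtrap, which encodes a protein that binds the AT1 receptor and promotes its internalisation. Control mice ranged from −2.14 to −1.83 and KO chimeras from −1.86 to −1.51, so the groups met at the edge. Agtrap rose by 0.25 ± 0.06 (limma adjusted p = 0.0455), close to the threshold, and it passed in 11 of the 33 other settings. With slide as a fixed term its adjusted p was 0.0982, and with quantile normalization 0.192. Atp6ap1, the other accessory subunit of the V-ATPase, differed by −0.13 ± 0.11 (limma adjusted p = 0.525).

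All 20 genes of AT1 receptor signalling were tested, 0 rose and 3 fell, against 0.794% and 1.79% of all probes, and 9 of 20 had an unadjusted p under 0.05, against 20.0%. Their median was −0.14 and 15 of 20 were negative. The phospholipases Plcb1 and Plcb4, which Gq proteins switch on, fell by 0.36 ± 0.07 and 0.46 ± 0.12 (limma adjusted p = 0.0185 and 0.0467), and the calcium-dependent kinase Camk2d fell by 0.35 ± 0.08 (limma adjusted p = 0.0380). In each of the 3 the groups overlapped. Their other probes did not show the same: those of Plcb1 gave 0.35 and 0.31, those of Plcb4 −0.11, 0.10 and 0.07, and those of Camk2d 0.02, −0.01 and −0.07. With slide as a fixed term none of the 3 passed (adjusted p = 0.0581, 0.0694 and 0.0643). All 3 are also general neuronal signalling genes, and neuron markers had the values given for Atp6ap2. Their part here was not tested. Gnaq, the G protein that couples AT1 receptors to these phospholipases, measured −0.19 ± 0.05 (limma adjusted p = 0.0640).

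Of 16 genes of aldosterone synthesis and mineralocorticoid response, 10 were tested, 0 rose and 3 fell, against 0.794% and 1.79% of all probes, and 6 of 10 had an unadjusted p under 0.05, against 20.0%. Their median was −0.29. As this list was chosen with earlier results of these data known, its counts are given as a description. The synthesis enzymes Cyp11a1, Cyp11b1 and Cyp11b2 were among the 6 too dim to test. The genes that fell were Sgk1, Tsc22d3 and Nedd4l, by 1.28 ± 0.18, 0.49 ± 0.07 and 0.30 ± 0.07 (limma adjusted p = 0.00663, 0.00896 and 0.0291). Sgk1 is a kinase and Tsc22d3 a leucine zipper protein, both induced by mineralocorticoid and glucocorticoid hormones alike, and Nedd4l is a ubiquitin ligase that Sgk1 holds in check. Sgk1 passed in all 33 other settings, Tsc22d3 in 32 and Nedd4l in 22, and Nedd4l missed it with slide as a fixed term (adjusted p = 0.0780). Markers of oligodendrocytes and microglia had the values given for Atp6ap2. Those of red blood cells had a median of −0.29 with 8 of 8 negative and 1 called lower (Hbb-b2), against 1.79% of all probes. The red blood cell score was −0.12 to 0.49 in control mice and −0.37 to 0.15 in KO chimeras. The part of these cell types in this list was not tested. The receptor gene Nr3c2 measured 0.14 ± 0.09 (limma adjusted p = 0.434).

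All 16 V-ATPase subunit genes were tested and 0 rose and 0 fell (limma), against 2.58% of all probes. An unadjusted p under 0.05 was reached by 5 of 16, against 20.0%. The median difference of the 16 was −0.12, beside 0.02 over all probes, and 14 of 16 were negative. Other probes gave 0.19 for Atp6v0a1, 0.28 for Atp6v1g2 and −0.29 for Atp6v1a. A relation of this list to the Atp6ap2 value was not tested. Those with the smallest p were Atp6v0e2 and Atp6v1a (−0.18 ± 0.07 and −0.20 ± 0.08; limma adjusted p = 0.149 and 0.168). Atp6v1f measured −0.20 ± 0.08 (limma adjusted p = 0.174). Over 6 other settings for scaling or background, the median of this list ran from −0.24 to −0.05 and 10 to 16 genes were negative. The medians ran from −0.26 to −0.07 for AT1 signalling and from −0.42 to −0.23 for the aldosterone list. Those of the processing enzymes (−0.12 to 0.07) and of the other receptors (−0.18 to 0.01) took either sign.

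**Figure D4:**
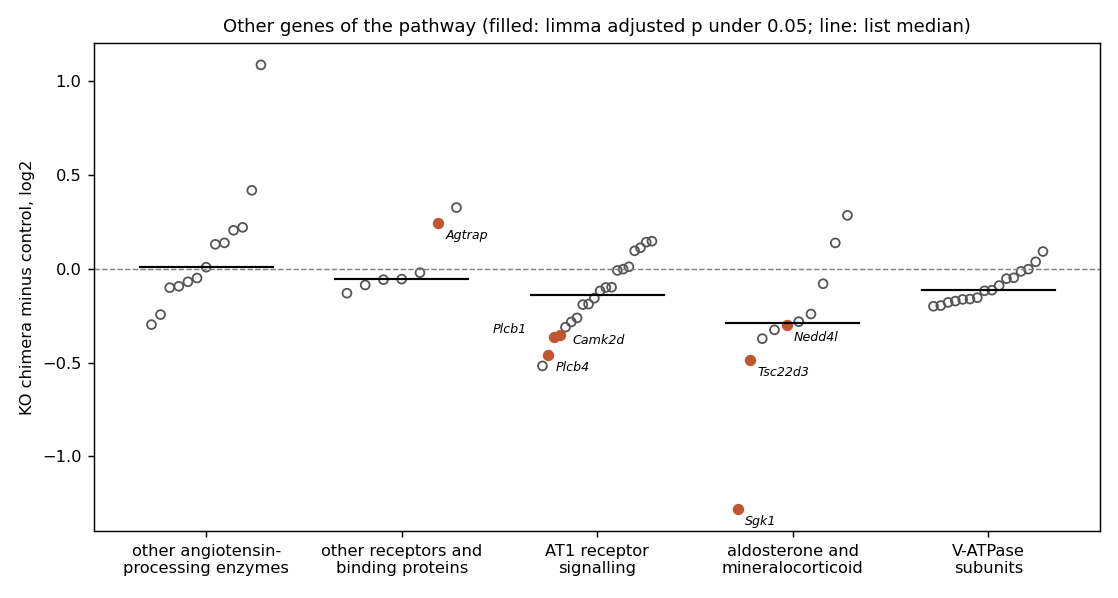
Difference of KO chimeras from control mice (vertical axis, log2) for each tested gene of the 5 lists (horizontal axis), ordered by size within a list, with filled points for limma adjusted p under 0.05 and a line at the list median. There are 7 filled points, Agtrap above 0 and the other 6 below.

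For the 4 members measured on every array, the genes whose deviations from their group means were most alike over the 16 animals were looked up among 13457 candidates, as a description. For Ren1 they were Tyr, Platr26 and 3300002P13Rik (Pearson r = 0.956, 0.918 and 0.914; Spearman rho = 0.921, 0.894 and 0.874). Tyr encodes tyrosinase, the pigment enzyme. The Ren1 animals fall into the clusters of the 2 scan days, and within days r with Tyr was 0.621 and 0.930 (8 animals each). The Tyr probe had the same split, −1.44 to −0.98 on the first day and −2.11 to −1.83 on the second in control mice. For Platr26 r was 0.318 within the first day and 0.896 within the second.

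For Atp6ap2 they were Abhd12b, Fbxo9 and Epha7 (r = 0.887, 0.882 and 0.859), and r within the days was between 0.806 and 0.908. Epha7 encodes an ephrin receptor. Their own differences were −0.88, −0.25 and −0.42 (limma adjusted p = 0.103, 0.0599 and 0.0747), and none passed. For Agt they were Stom, Ppp1r21 and A930005H10Rik (r = 0.848, 0.844 and 0.842). Without the 2 animals farthest from the centre in Agt these were 0.666, 0.677 and 0.779. For Ace they were Tfpt, Alox5ap and Micos13 (r = 0.800, 0.787 and 0.776), and within the second scan day 0.145, 0.300 and 0.436. Within the first day the same values were 0.903, 0.841 and 0.782.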

How the data were processed

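For each array the authors deposited the scanner's file. Its processed intensity is linear and background-subtracted per the file headers, and the submitters' processing notes name Agilent Feature Extraction 10.7. A second deposited file holds log2 values, with no normalization stated in the labels or headers. Its columns followed log2 of the scanner signal (slope 0.978 to 1.02, array medians 5.21 to 5.26), so the scale is log2 without centring of genes, and how the arrays were aligned is unknown.

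Control spots were dropped. The 75th percentile of each array was taken from log2 of the processed intensity over all other spots, outlier-marked ones included. A probe's spots were then averaged without the outlier-marked ones. The filter kept probes that were well above background on 8 or more of 16 arrays and had at least 4 unmarked values in each group. These were fitted in limma 3.58.1 (lmFit, eBayes; R 4.3.3), with Benjamini-Hochberg adjustment over all 35140 probes and a threshold of 0.05. The p-values describe animals of this study, whose marrow donors may have been shared. Genes were named from the files and through RefSeq accessions (28026 probes) or symbols. Positions are those of the files in mm9. The members and lists were chosen with earlier results of these data known. Named were all members, list genes past the threshold (at most 5, otherwise the 3 of smallest p), and the 3 genes most like each member measured on all arrays. Gnaq, Nr3c2, Atp6ap1 and the cell type markers called lower were named after their values were seen. The fit was tested on simulated data, where 6 of 34940 unchanged probes were called. Figures were drawn with matplotlib 3.10.9. Labels gave the groups and replicate numbers. The number of arrays limits the precision.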

Additional observations from a re-analysis of the deposited data

Results flagged for a closer look

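In each group of 8 animals the gap between the most extreme animal and its neighbour was set against the whole range of the group (Dixon's critical value 0.526). Of the 20 groups tested (10 probes in 2 groups), 2 had such an animal, and about 1 in 20 would by chance. The Agtr1a level of KO chimera replicate 1 was −2.79, below the −2.07 of the next KO chimera, and its spot was not well above background there. That array also had the fewest spots well above background, 27276. The Agtr2 level of control replicate 4 was −3.05, above the −3.45 of the next control mouse, with its spot well above background.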

How the results depend on the processing

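The number of member probes past the threshold was 0 under each of the other settings run but subtraction of the array median, where it was 1 (Atp6ap2). Over all probes, 908 passed, 30.7% of them higher. The count was 522 with quantile normalization, 4509 with the array median subtracted (5.3% higher), 44 with no alignment, 216 with normexp (10.6% higher) and 551 with the deposited table. It was 459 with no filter (52.5% higher) and 1517 with probes well above background on all arrays. With the slide it was 251 as a fixed block and 1444 as a random block, with trend and robust eBayes 1471, with array weights 1455 and at an adjusted p of 0.1 2518. With the percentile taken over detected probes 968 passed, 70.5% higher. Each scan day alone, chosen after seeing the data, gave 0 (limma; 3792 and 4820 at an unadjusted p under 0.05). Leaving out 1 animal gave 268 to 1119, with 268 and 287 without control replicates 5 and 7, 308 and 348 without KO chimera replicates 6 and 2, 441 and 499 without KO chimera replicates 4 and 7, and 504 without control replicate 1. With the replicate number as a block 698 passed (41.7% higher) and 0 members. Same-numbered animals correlated by −0.07 to 0.23. They were not set against differently numbered animals, so whether the numbers pair animals is not settled. Of the named list genes, Agtrap and Nedd4l were not called with that block (adjusted p = 0.101 and 0.0620). Dim signal limits Agtr1b, Enpep, Mas1 and Agtr2.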
